A study of Mus musculus with 12 samples.

Results

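Expression of 7 matrix metalloproteinases (Mmp2, Mmp8, Mmp9, Mmp12, Mmp13, Mmp14 and Mmp19) and 3 of their inhibitors (Timp1, Timp2 and Timp3) was examined in mouse liver. These 10 genes, of 18193 genes named on the array, were chosen by name with earlier results of these data known, and 23 probe sets read them. Each probe set combines several short probes into 1 signal. The brightest probe set, by mean signal, stood for the gene, and the others were read as a check. Total RNA came from the livers of 12 C57BL/6 mice, with 1 Affymetrix oligonucleotide array per mouse and 4 mice per group. The mice were 8 weeks old when feeding began and were fed for 8 weeks. The groups received normal chow (NC), a diet rich in fat that lacks methionine and choline (MCD+HF), or that diet containing 0.1% metformin (MCD+HF+Met). No group received metformin with normal chow. The lack of methionine and choline and the added fat came together, so their contributions cannot be told apart. The diet produces fat accumulation, inflammation and scarring in the liver and serves as a model of nonalcoholic steatohepatitis.

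Matrix metalloproteinases are zinc-dependent enzymes that cut collagens, elastin and other proteins of the extracellular matrix, and most are made as inactive precursors. TIMPs (tissue inhibitors of metalloproteinases) bind the active enzymes and block them. In a fibrotic liver, the balance between matrix deposition by activated stellate cells and its removal by these enzymes shapes how much scar is present. The mRNA levels measured here do not give enzyme activity.

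The authors scaled each array to an average signal of 100. Changes are given on the log2(signal + 10) scale, which understates the change of dim genes, and a difference was called at an adjusted p under 0.05 from limma, a linear model fitted to the 22830 probe sets that averaged 20 or more. Probe sets differ in how strongly they bind, so levels are compared between mice for 1 gene and not between genes. Mmp8, Mmp9 and Mmp13 had mean signals of 12.8, 14.9 and 11.2, under that limit, and were treated as dim. The livers carried strong hepatocyte signal, with 10 hepatocyte genes summing to between 113210 and 130651 in NC mice. These genes summed to between 59121 and 71160 in MCD+HF mice and to between 64838 and 79770 in MCD+HF+Met mice. With the diet 9 of the 10 were lower, as were 20.8% of all genes tested. Alb, Ttr and Apoa1, which encode blood proteins made by hepatocytes, fell by 1.02, 0.99 and 1.02 in log2 units. None of the 10 was called with metformin, and the smallest adjusted p were those of Ass1 (-1.02, 0.0580), Apoa1 (0.26, 0.135) and Fga (0.38, 0.157). A lower signal from a cell type's genes can come from fewer such cells or from less RNA in each, and these cannot be told apart in whole liver. Beta-actin signal at the 3′ end divided by that at the 5′ end, a measure of RNA integrity, was 1.73 ± 0.140 for NC mice, 1.54 ± 0.0694 for MCD+HF mice and 1.73 ± 0.114 with metformin (SD, n = 4 each). The same ratio for Gapdh was 0.710 ± 0.0122, 0.699 ± 0.0123 and 0.757 ± 0.0451 in the same order. The part of these ratios in the changes below was not tested.

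Mmp13 and Mmp12 are neighbours in a row of metalloproteinase genes on mouse chromosome 9 that runs Mmp13, Mmp12, Mmp1b, Mmp3, Mmp1a, Mmp10, Mmp8, Mmp27, Mmp20, Mmp7. Timp1, Timp2 and Timp3 are on 3 other chromosomes, and Timp1 and Timp3 overlap the synapsin genes Syn1 and Syn3 in the annotation. The 150 bases before the annotated start are shown for these genes because Mmp12 and Mmp13 carried the match described below and 1 of the 3 TIMPs was called with metformin. They are taken from RefSeq on GRCm38.p6, are written 5′ to 3′ on the strand of the gene, and carry in capitals each match to TGANTCA, the AP-1 motif, which reads the same on both strands.
Mmp12, first start, chr9:7344247-7344396 (plus strand): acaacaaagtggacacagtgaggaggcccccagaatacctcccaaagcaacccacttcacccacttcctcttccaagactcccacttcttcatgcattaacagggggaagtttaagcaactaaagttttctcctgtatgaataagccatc
Mmp12, second start, chr9:7347224-7347373 (plus strand): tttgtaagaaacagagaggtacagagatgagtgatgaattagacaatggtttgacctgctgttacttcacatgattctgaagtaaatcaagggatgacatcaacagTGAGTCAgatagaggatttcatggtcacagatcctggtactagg
Mmp13, chr9:7272364-7272513 (plus strand): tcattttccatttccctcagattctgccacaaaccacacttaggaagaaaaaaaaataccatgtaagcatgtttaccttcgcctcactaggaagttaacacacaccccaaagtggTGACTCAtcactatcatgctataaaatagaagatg
Timp1, chrX:20870016-20870165 (plus strand): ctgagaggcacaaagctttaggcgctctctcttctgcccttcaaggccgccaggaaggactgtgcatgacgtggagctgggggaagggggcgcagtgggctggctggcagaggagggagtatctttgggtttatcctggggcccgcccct
Timp2, chr11:118355412-118355561 (minus strand): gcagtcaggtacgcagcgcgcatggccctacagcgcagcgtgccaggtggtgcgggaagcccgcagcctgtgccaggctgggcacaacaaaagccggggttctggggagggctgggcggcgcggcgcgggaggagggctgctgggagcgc
Timp3, chr10:86300262-86300411 (plus strand): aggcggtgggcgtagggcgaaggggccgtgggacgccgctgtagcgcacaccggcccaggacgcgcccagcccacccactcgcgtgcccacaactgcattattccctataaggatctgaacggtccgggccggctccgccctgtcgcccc
The motif was searched in the 250 bases before the start for 7 members. Mmp2, Mmp9 and Mmp19 were not searched here. It was found for Mmp13, with its first base 35 bases before the start, and for the second of the 2 annotated starts of Mmp12, with its first base 44 bases before it. No match lay in the windows of Mmp8, Mmp14, Timp1, Timp2 or Timp3 or of the first Mmp12 start. Among all 32851 windows, 6.75% held a match. The windows of Timp2 and Timp3 were rich in CG dinucleotides, with 21 and 18, against 6 in the Timp1 window, a median of 6 over all windows, and 0 and 2 in those of Mmp12. These are features of the letters and not measured binding.

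Feeding the MCD+HF diet shifted both sides of this system. Mmp12, Mmp2, Mmp14 and all 3 TIMPs rose, Mmp19 fell, and the 3 dim members were not called. Thus, of the 7 members bright enough to test, 6 were higher and 1 was lower. Across the 11099 genes tested with 1 probe set each, 27.4% were higher, 20.8% were lower and 48.2% were called in either direction, so a call alone was common with this diet. Mmp12 and Timp1 averaged under 20 in NC mice and entered the test through their signal in the diet-fed mice, so the count of members is a description.

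**Figure D1:**
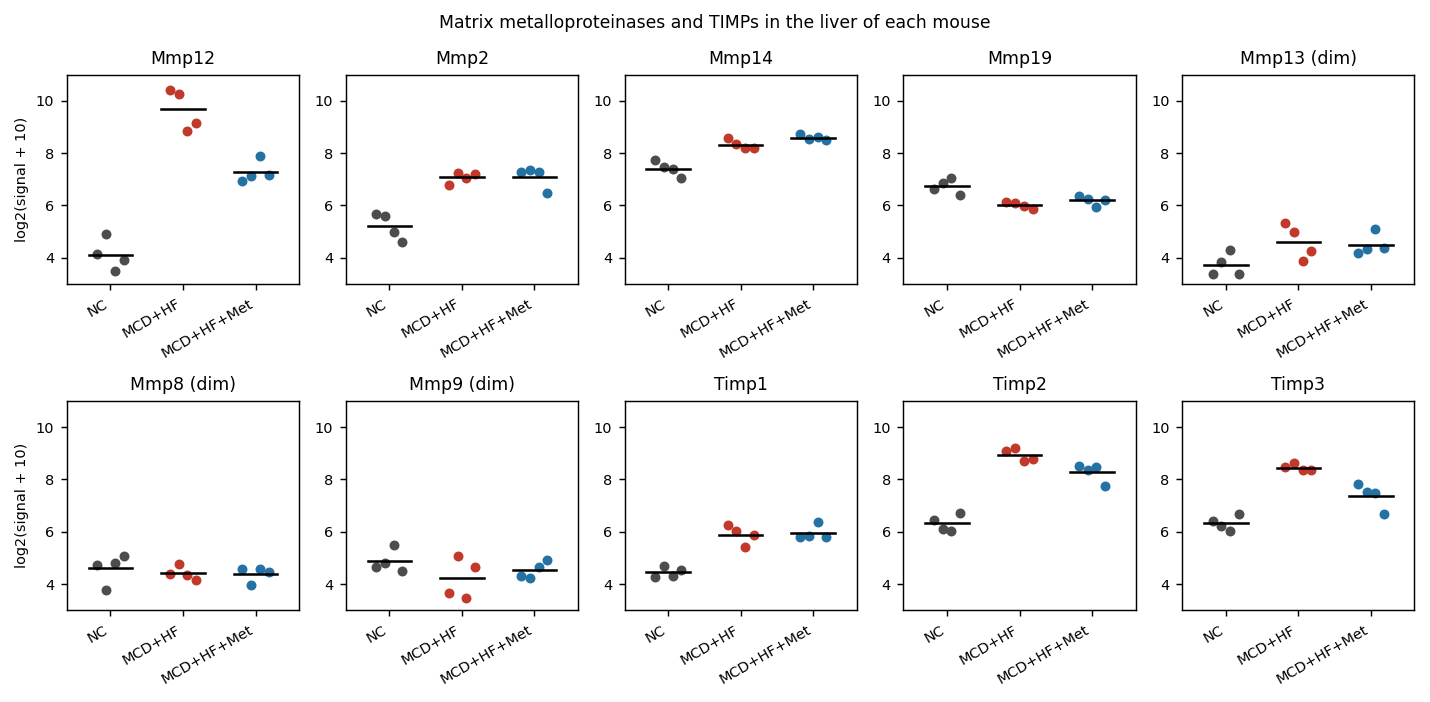
Signal of each of the 10 genes in each mouse on the log2(signal + 10) scale, with points for 4 mice per group and a line at the group mean. The MCD+HF mice lie above all NC mice for Mmp12, Mmp2, Mmp14 and the 3 TIMPs, while 1 MCD+HF+Met mouse lies in the NC range for Timp3, and Mmp12, Timp2 and Timp3 lie lower in MCD+HF+Met than in MCD+HF mice.

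Mmp12, the macrophage elastase, which digests elastin and is made largely by macrophages, had larger fitted changes than the other members. Its signals in the 4 NC mice, in the order of their numbers, were 7.7, 19.8, 1.4 and 5.2. In MCD+HF mice they were 1346.7, 1218.4, 455.5 and 550.6. The lowest MCD+HF mouse was far above the highest NC mouse, while the MCD+HF mice themselves fell into a higher and a lower pair. The rise was 5.55 ± 0.34 on the log2(signal + 10) scale (SE, adjusted p = 6.5e-09). As the NC signals are near 0, no linear fold is given, and the sizes of differences from NC depend on the offset. The rise was 6.80 and 4.39 with offsets of 1 and 32. In MCD+HF+Met mice the signals were 111.3, 130.2, 228.8 and 132.9, which lie between the other groups without overlapping either. Mmp12 thus fell by 2.39 ± 0.34 in log2 units with metformin (adjusted p = 0.00185), and its mean signal was 893 ± 455 without and 151 ± 52.9 with the drug (SD, n = 4). It stayed 3.16 above NC (adjusted p = 3.0e-06). The fall was called with each array left out in turn (adjusted p from 0.00105 to 0.00989), and was not called by the methods' t-test after adjustment (adjusted p = 0.107).

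Genes known from macrophages moved alongside Mmp12. Of 14 macrophage genes tested, 9 rose and 1 fell with the diet, and 6 fell and none rose with metformin. Their median changes were 1.06 with the diet and -0.50 with metformin, against 0.05 and 0.01 over all genes tested. The 3 smallest adjusted p with the diet were those of Gpnmb (6.39), Itgax (3.31) and Cd68 (2.35), markers of lipid-laden and phagocytic macrophages. Gpnmb, Itgax and Trem2 averaged 9.6, 12.4 and 3.1 in NC mice and entered the test through the diet-fed mice. Their rises depend on the offset, and the count of macrophage genes that rose is a description. With metformin, Gpnmb fell by 3.01, Lyz2 by 1.46 and Trem2 by 1.89 in log2 units. The resident macrophage (Kupffer cell) marker Clec4f went the other way with the diet, with a change of -1.36 (adjusted p = 7.7e-04), whereas Adgre1, the gene of F4/80, changed by 0.15 (adjusted p = 0.443). The summed signal of 15 macrophage genes was 4527 to 5573 in NC mice, 8078 to 10957 in MCD+HF mice and 3791 to 6452 with metformin, so MCD+HF mice did not overlap with the others. Gpnmb (means of 9.6, 1708 and 190 in the same order) and Lyz2 (407, 2006 and 688) had the largest shifts in that sum. Clec4f, Cd5l and Vsig4 averaged lower in MCD+HF than in NC mice. The part of macrophage content in the Mmp12 values was not tested. The genes most like Mmp12 over the 12 arrays were Vim (r = 0.99), Myl12b (0.99) and Ms4a7 (0.99). Once the group means were subtracted the correlations were 0.87, 0.92 and 0.80. These are descriptions over arrays that share 3 groups.

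Mmp2, or gelatinase A, cuts denatured collagen and basement membrane collagen, and stellate cells are a known source. Signals were 40.7, 39.0, 21.4 and 14.4 in NC mice, 100.2, 140.4, 122.0 and 138.5 in MCD+HF mice, and 146.2, 155.1, 146.5 and 78.4 with metformin. All diet-fed mice were above all NC mice, and the ranges of both diet groups overlapped. Mmp2 rose by 1.85 ± 0.24 with the diet (SE, adjusted p = 1.3e-05) and remained 1.89 above NC with metformin (adjusted p = 1.4e-05). The difference with metformin was 0.03, with a 95% interval from -0.47 to 0.54 (adjusted p = 0.959), and turned to -0.22 with the other Mmp2 probe set (adjusted p = 0.591). That probe set gave a rise of 1.53 with the diet.

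Mmp14 encodes the membrane-type enzyme MT1-MMP, which activates the Mmp2 precursor at the cell surface with the help of Timp2. The signals were 201.3, 167.7, 157.4 and 121.2 in NC mice and 372.9, 317.4, 280.4 and 279.4 in MCD+HF mice. With metformin they were 409.4, 361.8, 378.8 and 350.0. The diet-fed groups were both clear of NC. The rise with the diet was 0.92 ± 0.14 (SE, adjusted p = 5.8e-05), and MCD+HF+Met was 1.18 above NC (adjusted p = 5.9e-06). Between the diet groups the difference was 0.26, with a 95% interval from -0.03 to 0.55 (adjusted p = 0.312). A second probe set gave 1.24 with the diet, and the third and dimmest gave 0.46, which was not called (adjusted p = 0.0642).

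Mmp19, which cuts basement membrane proteins, was the exception in direction. Its signals were 89.3, 105.6, 123.6 and 73.6 in NC mice, 61.1, 57.6, 53.9 and 48.6 in MCD+HF mice, and 71.8, 66.4, 51.9 and 63.5 with metformin. Every NC mouse was above every diet-fed mouse. Mmp19 fell by 0.71 ± 0.15 in log2 units with the diet (SE, adjusted p = 0.00128). It differed from NC by -0.54 in MCD+HF+Met mice (adjusted p = 0.00926), which missed the threshold in the methods' t-test with the added adjustment (adjusted p = 0.0573). The difference with metformin was 0.16 (adjusted p = 0.596), and its second probe set gave -0.31 (adjusted p = 0.310), so no direction can be given.

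The collagenases Mmp8 and Mmp13, which cleave fibrillar collagen, and the gelatinase Mmp9 were dim, and no change of theirs was called when they were fitted without the signal filter. Mmp13, the main collagenase of rodent liver, had signals of 0.5, 4.2, 9.7 and 0.5 in NC mice, 29.8, 21.8, 4.6 and 9.3 in MCD+HF mice, and 8.1, 10.3, 24.2 and 10.8 with metformin. MCD+HF replicates 1 and 2 were above every NC mouse, and replicates 3 and 4 were not. The difference with the diet was 0.88 ± 0.31 (SE, adjusted p = 0.0503), and it was called in 7 of 20 alternative settings. Among these were an offset of 1 in place of 10 (2.08, adjusted p = 0.0339) and leaving out MCD+HF replicate 3 (1.13, adjusted p = 0.0153). It was not called without MCD+HF replicate 1 (0.65, adjusted p = 0.161) or 2 (0.76, adjusted p = 0.139). Nor was it called by the methods' t-test after adjustment (adjusted p = 0.190). Metformin gave -0.11 for Mmp13 (adjusted p = 0.949). Mmp8, the neutrophil collagenase, stayed between 3.8 and 23.9 in all 12 mice and differed by -0.18 with the diet (adjusted p = 0.674). Mmp9, known from neutrophils and macrophages, ranged from 1.2 to 35.4 and differed by -0.66 with the diet (adjusted p = 0.172), and by -0.94 without MCD+HF replicate 2 (adjusted p = 0.0483). Of 20 alternative settings, only this 1 called Mmp9 with the diet. Its second probe set gave -0.17. Among 10 neutrophil genes named on the array, 4 were bright enough to test. S100a8 (1.66), S100a9 (1.15) and Csf3r (0.80) rose with the diet, while Mpo and Camp, which define neutrophil granules, had mean signals of 9.04 and 3.30. None of the 4 was called with metformin, where S100a9 differed by 0.47, Ngp by -0.39 and S100a8 by 0.12 (adjusted p = 0.390, 0.566 and 0.871).

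**Figure D2:**
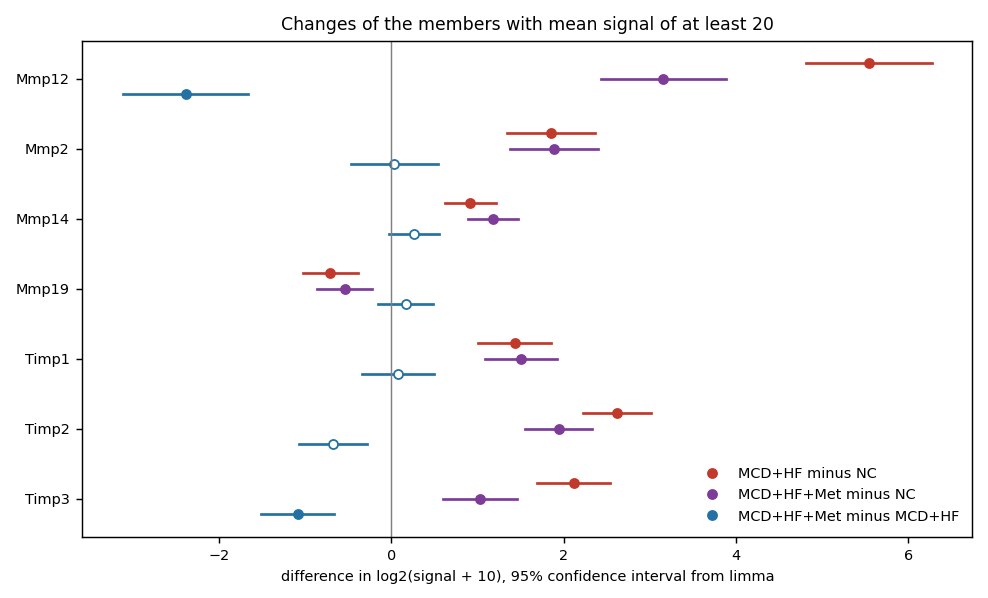
Difference in log2(signal + 10) for the 7 members that averaged 20 or more, with 95% confidence intervals from limma; filled points have an adjusted p under 0.05. With metformin, only the points for Mmp12 (-2.39) and Timp3 (-1.09) are filled, and the comparisons share the NC or MCD+HF arrays.

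With metformin, 2 of the 7 members bright enough to test were called, both lower: Mmp12 and, among the inhibitors, Timp3. As the members were chosen with earlier results of these data known, this count is a description. Over all genes tested, 3.97% were called, 2.34% lower and 1.63% higher. No member rose. Against NC, MCD+HF+Met mice had 6 of the 7 members tested higher and 1 lower, with 25.6% of all genes tested higher, 18.6% lower and 44.2% called. This comparison shares its MCD+HF+Met arrays with the metformin comparison and its NC arrays with the diet comparison.

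All 3 inhibitors rose with the diet, and 1 of them was called with metformin. Timp3 is bound to the matrix and also blocks the TNF-releasing enzyme Adam17. Its signals were 76.1, 64.0, 54.9 and 93.4 in NC mice and 348.1, 381.4, 320.4 and 315.2 in MCD+HF mice. In MCD+HF+Met mice they were 215.0, 172.0, 167.2 and 91.5. MCD+HF mice were above all others, and MCD+HF+Met replicate 4 lay within the NC range. Timp3 rose by 2.12 ± 0.20 with the diet (SE, adjusted p = 5.8e-07) and fell by 1.09 ± 0.20 in log2 units with metformin (adjusted p = 0.00864). It was still 1.03 above NC (adjusted p = 7.9e-04). The other 3 Timp3 probe sets also fell with metformin, by 0.98, 1.02 and 0.73 in log2 units (adjusted p = 0.0231, 0.0320 and 0.0307). For 1 of them, the difference that remained against NC was 0.23 and was not called (adjusted p = 0.430). Leaving out any single array kept the fall with metformin (adjusted p from 0.00589 to 0.0384). The methods' t-test, with the adjustment added here, gave an adjusted p of 0.129.

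Timp2, which both inhibits metalloproteinases and takes part in the activation of Mmp2 by Mmp14, had signals of 76.8, 59.6, 55.0 and 95.7 in NC mice. In MCD+HF mice they were 533.4, 575.4, 408.3 and 434.9. In MCD+HF+Met mice they were 353.9, 317.0, 343.7 and 204.9. The groups did not overlap. Timp2 rose by 2.62 ± 0.18 with the diet (SE, adjusted p = 2.5e-08) and MCD+HF+Met mice were 1.94 above NC (adjusted p = 7.7e-07). The difference with metformin was -0.68 ± 0.18, with a 95% interval from -1.07 to -0.29, and missed the threshold at an adjusted p of 0.0561. It was within the threshold with an offset of 32 (adjusted p = 0.0385), a minimum mean signal of 50 (0.0493), quantile normalization (0.0496) or without NC replicate 4 (0.0403). It missed the threshold with an offset of 1 (0.0720), without MCD+HF replicate 2 (0.160) and in the methods' t-test with the added adjustment (0.196). Of 26 alternative settings and probe sets, 6 called it, and of the 12 fits that left out an array, 1 did. Of the other 4 Timp2 probe sets bright enough to test, those with changes of -0.87 and -0.73 were called (adjusted p = 0.0183 and 0.0362), and those with changes of -0.74 and -0.42 were not (adjusted p = 0.160 and 0.309). The sixth probe set was dim.

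Timp1, a secreted inhibitor that rises in injured liver and is a widely used marker of fibrosis, had signals of 9.3, 16.1, 10.1 and 13.2 in NC mice. They were 66.3, 54.7, 32.6 and 49.0 in MCD+HF mice and 45.5, 47.8, 74.0 and 46.4 in MCD+HF+Met mice. Both diet groups were above all NC mice and overlapped each other over most of their range. Timp1 rose by 1.43 ± 0.20 with the diet (SE, adjusted p = 2.7e-05) and was 1.5 above NC with metformin (adjusted p = 2.1e-05). As its NC signals were dim, the sizes of these differences depend on the offset. The rise with the diet was 1.96 and 0.89 with offsets of 1 and 32. The difference between the diet groups was 0.07, with a 95% interval from -0.35 to 0.49 (adjusted p = 0.885), and its sign turned when MCD+HF replicate 3 or MCD+HF+Met replicate 3 was left out (-0.0863 and -0.0695).

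**Figure D3:**
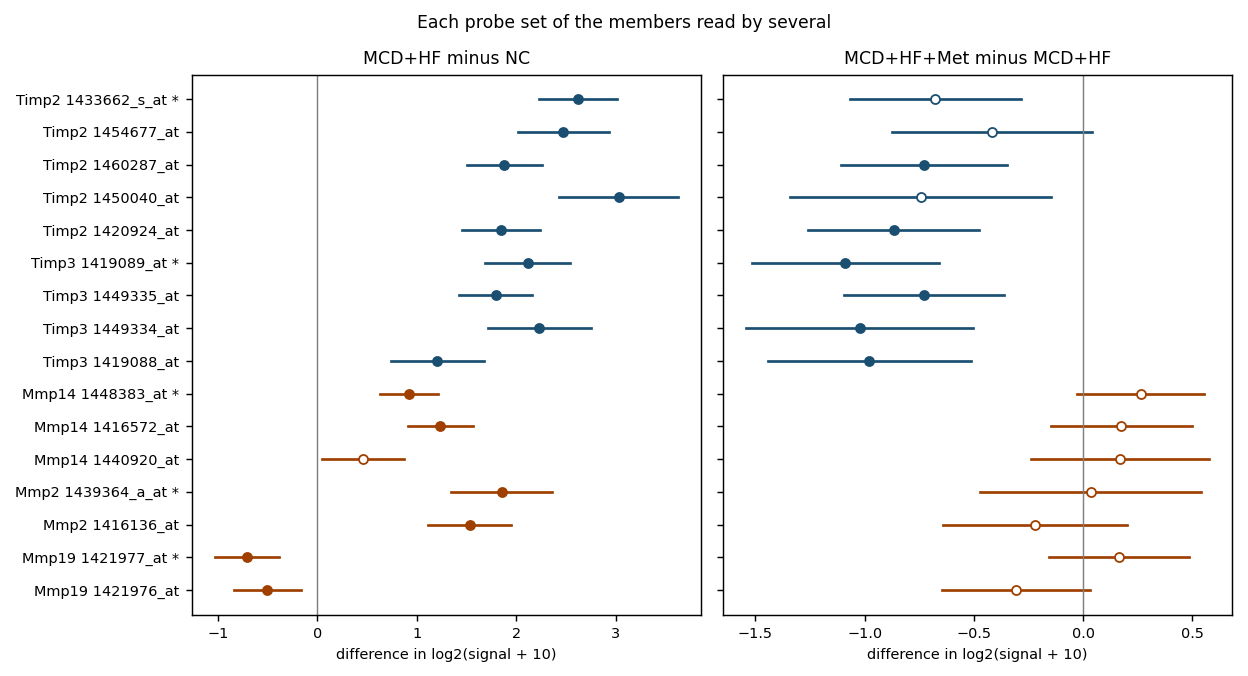
Difference in log2(signal + 10), with its 95% confidence interval, for each probe set of the members read by more than 1 bright probe set; filled points have an adjusted p under 0.05 and an asterisk marks the representative. All 4 Timp3 probe sets are filled with metformin, and 2 of the 5 Timp2 probe sets are.

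Whether these genes changed by different amounts was tested on the difference of 2 genes' log2(signal + 10) within each mouse, by exact 2-sided permutation of the mice over 2 groups. In 8 comparisons the groups did not overlap, which gives p = 0.0286, the smallest that 4 mice against 4 allow, and an adjusted p of 0.0286 by the exact test for each. With metformin the change of Timp1 exceeded that of Timp3 by 1.16 and that of Timp2 by 0.75, and the change of Timp2 exceeded that of Timp3 by 0.41. Timp1 minus Timp3 averaged -2.56 ± 0.30 in MCD+HF mice and -1.40 ± 0.53 with metformin (SD, n = 4). Timp2 minus Timp3 was -0.01 ± 0.05 in NC mice, 0.49 ± 0.12 in MCD+HF mice and 0.90 ± 0.17 with metformin, so the spread within each group was smaller than the steps between them. With the diet, Timp2 minus Timp3 shifted by 0.50, and by 0.52 and 0.48 with offsets of 1 and 32 in place of 10. The 3 diet comparisons that involve Timp1 rest on its dim NC signals, and 1 of them on those of Mmp12 too, so their sizes depend on the offset and are given as a description. Timp1 minus Timp2 shifted by -1.19 with the diet, and by -0.81 and -1.44 with offsets of 1 and 32. Timp1 minus Timp3 shifted by -0.68, and by -0.29 with an offset of 1, where the threshold was missed (adjusted p = 0.4 by the exact test). Mmp12 minus Timp1 shifted by 4.11, and by 4.84 and 3.50 with offsets of 1 and 32. With metformin, where both diet groups were brighter, Mmp12 minus Timp1 shifted by -2.46, and by -2.55 and -2.29 with these offsets. Without MCD+HF replicate 1, 2 or 4, 5 of the 8 were within the threshold, and the 3 lost each time were the differences between TIMPs with metformin (adjusted p = 0.0571 by the exact test). Those 3 were within it in 8 of 12 fits that left out an array. Without MCD+HF replicate 3 none of the 8 was, with adjusted p of 0.0571 to 0.0857 by the exact test and every sign kept.

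**Figure D4:**
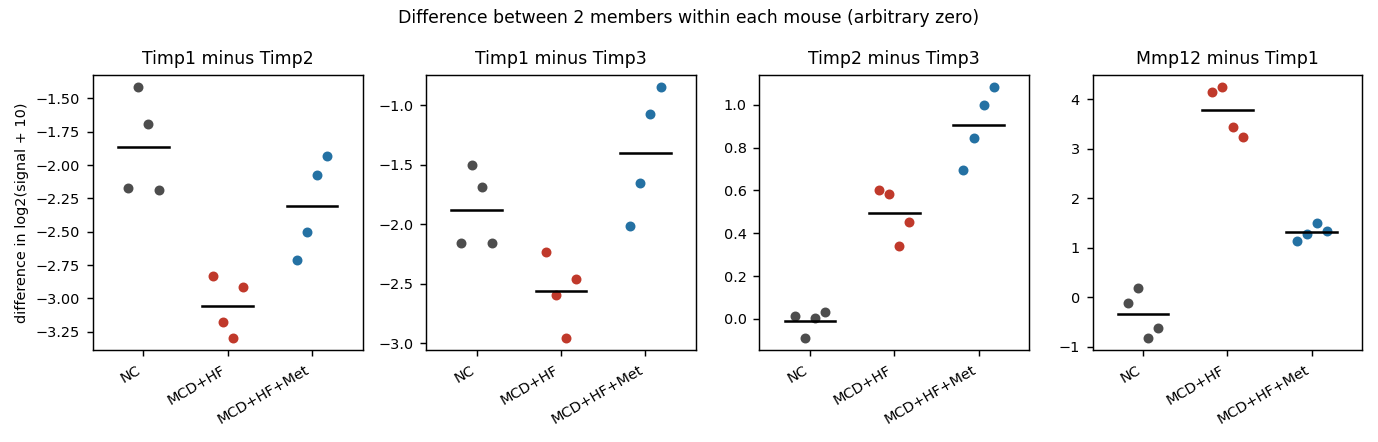
Difference between 2 members' log2(signal + 10) within each mouse, with points for 4 mice per group and a line at the mean; the zero depends on the probes, so shifts between groups are read and not the sign. Timp2 minus Timp3 steps up from NC to MCD+HF to MCD+HF+Met, and Mmp12 minus Timp1 is higher in MCD+HF mice than in the other groups.

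How alike the members ran from mouse to mouse was described by correlation. With the group means subtracted, r over the 12 arrays was 0.93 between Timp2 and Timp3, 0.17 between Timp1 and Timp3, 0.39 between Timp1 and Timp2, and 0.85 between Mmp12 and Timp1. Mmp2 and Mmp14 reached 0.52. The genes most like Timp1 were Rab11fip5, Jpt1 and Sfxn3 (r = 0.98 each), those most like Timp2 were Pmp22, Lhfp and Slc5a1 (0.99 each), and those most like Timp3 were Tinag (0.99), Thrap3 (0.97) and Wls (0.97). Kdm2b, Scara3 and Cnksr3 were most like Mmp2 (0.98, 0.97 and 0.97), Lrrfip1, Slc25a24 and Lratd2 most like Mmp14 (0.98 each), and Dnajb11, Chac2 and Pgpep1 most like Mmp19 (0.95 each). With the group means subtracted, these correlations lay between 0.66 and 0.92. They describe 12 arrays that share 3 groups.

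Stellate cells and myofibroblasts, which lay down scar collagen, are known sources of Mmp2, Mmp14 and TIMPs. Of 13 of their marker genes, 12 rose with the diet, with a median change of 1.55 against 0.05 over all genes tested, and Vim (2.72), Pdgfra (2.76) and Pdgfrb (1.96) had the smallest adjusted p. With metformin 1 of the 13 was called, the intermediate filament gene Vim, which fell by 1.29 in log2 units (adjusted p = 0.00112) and is also expressed by macrophages. The summed signal of the 13 genes was 1465 to 1802 in NC mice, 4501 to 5668 in MCD+HF mice and 3772 to 5654 with metformin, the last 2 ranges overlapping. Pdgfra differed by -0.50 and Acta2, which defines activated stellate cells, by 0.46 with metformin (adjusted p = 0.208 and 0.225). With the diet Acta2 rose by 0.94, and Des differed by 0.01. Col1a1 and Lox averaged under 20 in NC mice and entered the test through the diet-fed mice, so the stellate count is a description. All 6 cholangiocyte genes tested rose with the diet, among them Anxa4 (1.56), Epcam (3.33) and Krt7 (1.52). None was called with metformin, where Anxa4 differed by -0.33, Epcam by -0.47 and Cldn4 by 0.19 (adjusted p = 0.0755, 0.336 and 0.786). The summed signals of the 7 named on the array were 338 to 428 in NC mice, 1204 to 1576 in MCD+HF mice and 951 to 1298 with metformin. Anxa4 made up most of each sum, with means of 329, 997 and 788 in the same order. Krt7, Krt19, Epcam, Sox9 and Cldn4 averaged under 20 in NC mice and entered the test through the diet-fed mice. The count of cholangiocyte genes that rose is therefore a description. Of 10 endothelial genes, 3 rose and 3 fell with the diet, and those of smallest adjusted p were Lyve1 (1.02), Vwf (0.89) and Eng (0.41). Over all genes tested, 27.4% rose and 20.8% fell with the diet. With metformin Emcn fell by 0.62 in log2 units (adjusted p = 0.0146), and Lyve1 (-0.61) and Stab2 (0.31) were not called (adjusted p = 0.0691 and 0.103). Of 7 T and B cell genes named on the array, none reached a mean signal of 20. The part of these cell types in the members' values was not tested.

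Of 17 further genes of the family, including Timp4, 12 were named by a probe set of their own and 3 were bright enough to test. Mmp7, or matrilysin, which is known from injured bile duct epithelium, was between 6.7 and 36.2 in NC mice, between 900.1 and 1088.7 in MCD+HF mice and between 867.0 and 1241.6 with metformin. It rose by 5.13 ± 0.26 with the diet (SE, adjusted p = 8.4e-10) and differed by 0.01 with metformin (adjusted p = 0.987). Mmp23 rose by 1.03 with the diet (adjusted p = 0.0208) and differed by -0.39 with metformin (adjusted p = 0.566). Mmp24 differed by -0.19 with the diet (adjusted p = 0.359) and by 0.09 with metformin (adjusted p = 0.813).

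The mRNAs of proteins that switch metalloproteinases on or restrain them were called in both directions. Of 17 activators and regulators tested, 12 rose and 2 fell with the diet (median 0.74), and 1 rose and 3 fell with metformin (median -0.13). Over all genes tested, 27.4% rose and 20.8% fell with the diet, and 1.63% rose and 2.34% fell with metformin. Plat, Thbs1 and Thbs2 averaged under 20 in NC mice and entered the test through the diet-fed mice, so the diet count is a description. The plasminogen gene Plg, made by hepatocytes, fell by 1.66 in log2 units with the diet and rose by 0.35 with metformin (adjusted p = 0.0395). Plat, which turns plasminogen into plasmin, an activator of several metalloproteinase precursors, rose by 2.35 with the diet, and the matrix protein gene Sparc rose by 1.72. With metformin the cathepsins Ctsk and Ctss, proteases of lysosomes that also cut matrix, fell by 1.58 and 1.26 in log2 units (adjusted p = 0.00146 and 0.00216), and the hyaluronan receptor Cd44 fell by 1.00 (adjusted p = 0.0154). Reck, a membrane-bound inhibitor of metalloproteinases, rose by 0.74 with the diet.

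Genes of the matrix proteins that these enzymes cut rose widely with the diet. Of 18 tested, 17 rose and 1 fell, with a median change of 1.99. Over all genes tested, 27.4% rose and 20.8% fell, with a median of 0.05. The smallest adjusted p were those of Lum (2.58), Nid1 (2.04) and Col6a3 (2.75), and the 1 that fell was Fn1, the fibronectin gene, which hepatocytes also express, with a change of -0.95. With metformin 3 fell, Lum by 1.02, Col1a2 by 0.73 and Dcn by 0.43 in log2 units (adjusted p = 0.00239, 0.0293 and 0.0493), and Fn1 rose by 0.48 (adjusted p = 0.0155). Over all genes tested, 2.34% fell and 1.63% rose with metformin. Against NC, 17 of the 18 were still higher in MCD+HF+Met mice, with 25.6% of all genes tested higher. Col1a1, Col6a2 and Lama2 averaged under 20 in NC mice and entered the test through the diet-fed mice, so the counts of higher genes are descriptions. The substrate and stellate lists share Col1a1.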

How the data were processed

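Liver RNA of 12 mice was hybridised to 1 Affymetrix array each. The deposited values are linear signal intensities that the authors computed per probe set with GCOS and scaled to an array average of 100. Their detection and change calls were not used. Groups were taken from the sample labels. From the intensities, log2(signal + 10) was computed, 64 control probe sets were left out of 45101, and the 22830 with a mean of at least 20 were tested with limma 3.58.1 in R 4.3.3 (3 groups in 1 model, variance trend, 9 residual degrees of freedom), with adjustment by the Benjamini-Hochberg method. Dim members were fitted without the filter. Symbols came from the platform annotation. A probe set with 1 symbol and the highest mean signal stood for its gene, with probe sets ending in _x_at used only where no other existed. Differences between 2 members were tested by exact permutation (Python 3.11.15, scipy 1.17.1, pandas 2.3.3, matplotlib 3.10.9). The text names every member, the 3 genes of smallest adjusted p in each other list with the diet and with metformin, and the 3 genes most like each bright member. Some more genes (Clec4f, Adgre1, Des, Mpo, Camp, Reck, Dcn, Krt19, Sox9, Lox, Col1a1, Thbs1, Thbs2, Col6a2 and Lama2) were named after their values were seen. The members and lists were chosen with earlier results of these data known. limma and the permutation test were tested on simulated data. Precision is limited by the number of arrays.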

Additional observations from a re-analysis of the deposited data

Results flagged for a closer look

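In 30 sets of 4 mice (10 genes in 3 groups), 2 held a mouse that stood apart from its group by Dixon's criterion at the 95% level, and chance flags about 1 in 20 such sets. Mmp2 was 78.4 in MCD+HF+Met replicate 4, below the other 3 mice of the group. Timp1 was 74.0 in MCD+HF+Met replicate 3, above the other 3.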

How the results depend on the processing

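The calls of the 7 bright members with the diet and against NC held under the offsets, the quantile normalization, the variance settings, the replicate block and every array left out. With metformin, the count of 2 called members became 0 under the methods' t-test after Benjamini-Hochberg adjustment. Over all probe sets tested, that t-test called 8 with metformin, against 786 by limma, so the loss was not particular to these members. The count was 3 under the rule of the methods (a difference over 1.5-fold with an unadjusted p under 0.05). Calls over all probe sets were not counted under that rule, so this 3 has no background and is a description. The labels do not say whether the replicate numbers pair the mice. Correlations of same-numbered deviations ran from -0.13 to 0.25, with 2 of 12 above 0.1. Differently numbered mice were not compared, so these values cannot settle it. With the replicate block, the counts were 7, 2 and 7 with the diet, with metformin and against NC, and the Mmp12 and Timp3 falls were called (adjusted p = 0.00446 and 0.0167). The number of paired differences within the threshold ranged from 0 to 8 when 1 array was left out. With metformin, members that were not called changed sign under some settings. Leaving out 1 array gave -0.0612 to 0.246 for Mmp2, -0.12 to 0.11 for Mmp8, -0.36 to 0.12 for Mmp13 and -0.0863 to 0.194 for Timp1. Quantile normalization gave 0.0140 for Mmp8, and a second probe set gave -0.22 for Mmp2 and -0.31 for Mmp19. Requiring a mean signal of 50 left Timp1 untested. The causes were not tested. Signals near 0 limit Mmp8, Mmp9, Mmp13 and the NC levels of Mmp12 and Timp1.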
